A study of Mus musculus with 59 samples.

Results

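The genes described are 9 that build both sides of a cortical synapse: the neurexins Nrxn2 and Nrxn3, the neuroligins Nlgn1, Nlgn2 and Nlgn3, the scaffolds Shank1, Shank2 and Shank3, and Dlg4, which encodes PSD-95. They were chosen by name, as families of synaptic adhesion and scaffold genes, out of 18088 genes in the table, and all 9 passed the filter on low values. Their messenger RNA was measured in the prefrontal cortex of 25-day-old C57BL/6J mice, heterozygous for Naa15 (HT, 29 libraries) or wild type (WT, 30 libraries). Naa15 encodes the auxiliary subunit of NatA. NatA attaches acetyl groups to the first residue of newly made proteins. Pups of either genotype took in fluoxetine (an inhibitor of serotonin reuptake, 20 libraries), lithium (a mood stabiliser, 20 libraries) or vehicle (19 libraries) through maternal milk between postnatal days 3 and 24. With sex, this gave 12 groups of 5 libraries, except HT vehicle males with 4. The sources used here do not give the Naa15 allele, the drug doses or which pups shared a mother, so p-values measure the spread between libraries, and animals of 1 litter may have been counted apart.

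Neurexins sit on the presynaptic membrane and bind neuroligins on the postsynaptic membrane across the cleft. Inside each cell, the last residues of both proteins are gripped by PDZ domains: those of CASK and Mint proteins hold neurexins, and those of PSD-95 hold neuroligins. PSD-95 clusters glutamate receptors at excitatory synapses, and Shank proteins, tied to PSD-95 through the Dlgap family, form the deeper layer of that postsynaptic density. Neuroligin-1 is known from excitatory synapses, neuroligin-2 from inhibitory synapses and neuroligin-3 from both. Mutations in several of these genes are known in autism and intellectual disability.

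Positions are given in GRCm38. Nrxn2 (ENSMUSG00000033768) is on chromosome 19, 6418731 to 6544169, plus strand, and Nrxn3 (ENSMUSG00000066392) on chromosome 12, 88722876 to 90334935, plus strand. Nlgn1 (ENSMUSG00000063887) is on chromosome 3, 25426215 to 26332460, minus strand, Nlgn2 (ENSMUSG00000051790) on chromosome 11, 69823122 to 69837784, minus strand, and Nlgn3 (ENSMUSG00000031302) on chromosome X, 101299168 to 101325963, plus strand. Shank1 (ENSMUSG00000038738) is on chromosome 7, 44310253 to 44360572, plus strand, Shank2 (ENSMUSG00000037541) on chromosome 7, 144001928 to 144424494, plus strand, and Shank3 (ENSMUSG00000022623) on chromosome 15, 89499623 to 89560261, plus strand. Dlg4 (ENSMUSG00000020886) is on chromosome 11, 70016942 to 70047522, plus strand, the chromosome that also carries Nlgn2.

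The shared ends of the adhesion proteins are visible in their coding sequence. The last 60 coding bases of the longest coding transcript are shown 5′ to 3′ in GRCm38 with GENCODE M21 annotation, because they hold the PDZ-binding tail through which these receptors reach the scaffolds. Capitals mark the codons of the last 4 residues before the stop codon.
Nrxn2 (chr19:6532089-6532148, plus strand): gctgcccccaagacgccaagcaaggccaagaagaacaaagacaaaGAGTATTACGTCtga
Nrxn3 (chr12:90332351-90332410, plus strand): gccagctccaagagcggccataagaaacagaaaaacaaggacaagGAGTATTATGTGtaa
Nlgn1 (chr3:25433638-25433697, minus strand): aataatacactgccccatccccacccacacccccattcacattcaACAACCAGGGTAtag
Nlgn2 (chr11:69825203-69825262, minus strand): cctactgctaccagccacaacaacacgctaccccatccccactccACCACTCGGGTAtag
Nlgn3 (chrX:101320203-101320262, plus strand): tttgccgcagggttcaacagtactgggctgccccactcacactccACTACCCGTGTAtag
Of these 12 bases, 10 are identical in Nrxn2 and Nrxn3. Among the neuroligins 9 are identical in Nlgn1 and Nlgn2, 9 in Nlgn1 and Nlgn3 and 9 in Nlgn2 and Nlgn3, against 2 in Nrxn2 and Nlgn3. The genes differ far more in overall base composition. GC content over all annotated transcripts of a gene, weighted by their length, was 41.2% in Nlgn1, 49.6% in Nrxn3, 49.7% in Nlgn3, 54.7% in Dlg4 and 56% in Shank2. It was 60% in Nlgn2, 61.4% in Nrxn2, 62.1% in Shank3 and 62.5% in Shank1.

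Promoter sequence was listed for some of these genes. The 250 bases upstream of the first listed start of Nlgn1 and of Nlgn2 (RefSeq, GRCm38.p6) are shown because the first gene differed least under lithium in WT and the second was among those that differed most. Capitals mark the GC box GGGCGG, searched on both strands.
Nlgn1 (chr3:26331910-26332159, minus strand): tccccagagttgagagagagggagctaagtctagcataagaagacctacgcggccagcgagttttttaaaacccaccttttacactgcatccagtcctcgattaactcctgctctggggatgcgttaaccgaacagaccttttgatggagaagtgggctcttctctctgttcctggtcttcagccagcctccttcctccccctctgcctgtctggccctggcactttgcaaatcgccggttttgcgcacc
Nlgn2 (chr11:69837785-69838034, minus strand): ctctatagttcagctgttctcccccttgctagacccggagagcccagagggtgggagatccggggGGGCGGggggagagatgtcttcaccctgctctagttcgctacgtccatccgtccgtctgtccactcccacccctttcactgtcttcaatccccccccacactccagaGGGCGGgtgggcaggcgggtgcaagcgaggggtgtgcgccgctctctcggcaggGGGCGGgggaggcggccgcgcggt
The Nlgn1 stretch has 53.6% GC, 9 CpG pairs and 0 GC boxes, and the other stretch listed for Nlgn1, not printed, has 43.6% GC, 5 CpG pairs and 0 GC boxes. The Nlgn2 stretch has 67.6% GC, 18 CpG pairs and 3 GC boxes. Of the stretches not printed, those of Nrxn3 have 0 GC boxes each, those of Dlg4 have 0, 0 and 1, and that of Shank3 has 4. Nrxn3, Dlg4 and Shank3 were all called lower under lithium in WT on the deposited scale. A relation between GC boxes and the differences was not tested. A GC box lies in 32.7% of the 32851 promoter stretches of the same length in that table. Of the 9 genes, 5 had an entry, and Nrxn2, Nlgn3, Shank1 and Shank2 had none.

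Each library held 25 to 32.9 M reads. The first principal component, with 14.4% of the variance, set the 5 HT fluoxetine females and the 20 lithium libraries apart, at -31.6 to -14.9, from the other 34 at -2.74 to 27.6. These 25 libraries had a mitochondrial read share of 6.76% to 10.3% (median 7.98%), against 4.96% to 7.83% (median 5.84%) in the other 34. Their values also leaned away from GC-rich genes, with a slope of -0.273 to -0.0559 on the log2 scale per 10 points of GC content, against -0.0737 to 0.203. HT fluoxetine females were therefore treated apart from HT fluoxetine males throughout. By these measures the 5 libraries labelled HT fluoxetine female stand with the lithium libraries and not with the other fluoxetine libraries. No value in the files checks which drug an animal took, so an effect of the drug, a batch and an exchange of labels cannot be told apart, and each value given for HT fluoxetine females is that of libraries so labelled. Naa15 itself, counted over the whole gene, differed by -0.03 ± 0.0414 between HT and WT under vehicle (adjusted p = 0.895), so these counts do not check the genotype labels, whereas Xist and Y-linked genes separated all 30 female from all 29 male libraries.

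Per kilobase of exon, the normalised count in WT vehicle cortex (10 libraries) was highest for Dlg4 at 2451 ± 197 (SD) and Shank1 at 2183 ± 157, whose ranges overlapped. Nlgn2 followed at 1679 ± 79.2, below the range of Shank1. Nrxn2 at 1188 ± 40.4, Shank3 at 1013 ± 129 and Shank2 at 869 ± 87.3 formed a chain in which each overlapped the next. Nrxn3 at 549.6 ± 63.9 and Nlgn3 at 462 ± 12.1 overlapped each other and lay below Shank2. Nlgn1, at 191 ± 19.5, was the lowest and overlapped none of the others. The relative spread differed as well: Nlgn3 held within 440.2 to 480.1 per kb while Shank3 ran from 746 to 1194.

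**Figure D1:**
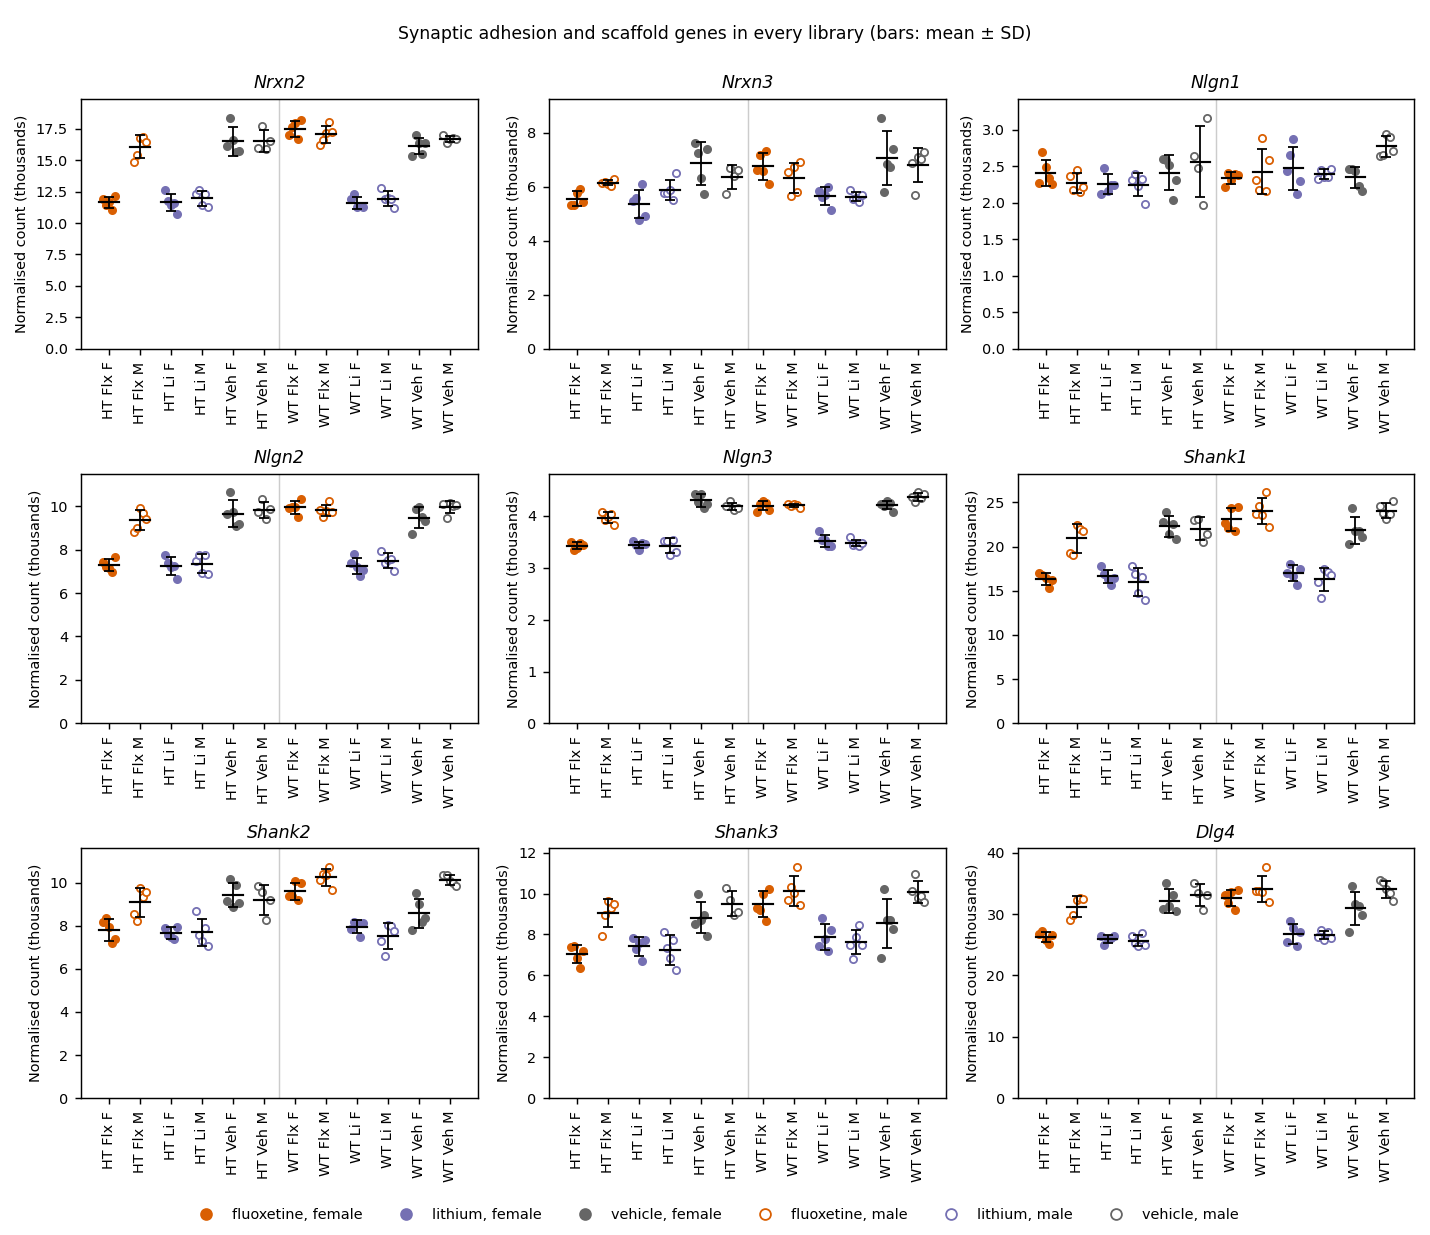
Normalised count (axis in units of 1000) of each of the 9 genes in every library, with HT groups left of WT groups and, within each genotype, fluoxetine (Flx), lithium (Li) and vehicle (Veh) in females (F, filled) and males (M, open); bars are mean ± SD (n = 5, or 4 in HT vehicle males). Except in Nlgn1, the means of HT fluoxetine females and of the 4 lithium groups lie below those of the other 7 groups. The share of all genes with this order was not counted.

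In every gene but Nlgn1, the 5 group means of HT fluoxetine females and of the lithium groups lay below all 7 other group means on the deposited scale. The share of all genes with this order was not counted. The same groups stood apart on the first principal component, so the order is not particular to these genes. For Nrxn2 the 5 means were 11617 to 11981 and the 7 others 16074 to 17505. For Nlgn3 they were 3423 to 3521, against 3965 to 4367. For Dlg4 they were 25658 to 26798, against 30914 to 34147. Nlgn1 was the exception, with 2247 to 2475 in the 5 groups and 2269 to 2769.8 in the other 7. Its highest mean was in WT vehicle males and its lowest in HT lithium males.

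The first comparison, HT against WT under vehicle, asks what losing 1 copy of Naa15 changes without a drug. None of the 9 genes was called (limma on log2 of the normalised count plus 1, Benjamini-Hochberg adjusted p under 0.05), and over all 17891 genes tested 0.106% were called. The differences ran from -0.07 in Nrxn3 to 0.01 in Dlg4, 0 of 9 had an unadjusted p under 0.05, and edgeR and DESeq2 on the recovered reads also called 0. Nlgn3 gave the narrowest bound: 4297 ± 125 (SD, n = 5) in HT females against 4202 ± 76.5 (SD, n = 5) in WT females, and 4184 ± 67.6 (SD, n = 4) in HT males against 4367 ± 75.1 (SD, n = 5) in WT males. Over both sexes its difference was -0.01 ± 0.0183 (adjusted p = 0.896), with a 95% interval of -0.05 to 0.02. Shank1 stood at -0.05 ± 0.0422 (adjusted p = 0.835), interval -0.13 to 0.03, and Shank3 at -0.02 ± 0.0536 (adjusted p = 0.971), interval -0.12 to 0.09. The widest interval was that of Nlgn1, -0.16 to 0.07. Nrxn3 ran from 5734 to 7604 with a median of 6618 in HT and from 5695 to 8549 with a median of 6954 in WT, so the HT values lay inside the WT range.

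Lithium was compared with vehicle within each genotype. In WT, 8 of the 9 genes fell (26.3% of all genes tested were called lower) and 0 rose; with each library's trend on GC content and gene length removed, Nrxn3, Nlgn2 and Nlgn3 were still called lower (17.5% of all genes), Shank3 was called higher (19.5% of all genes), and Shank2 and Dlg4 stood slightly above 0 without a call. In HT, 8 fell (24.9% of all genes) and 0 rose; with the trend removed, Nrxn3, Nlgn1, Nlgn2 and Nlgn3 were called lower (16.7% of all genes) and Shank2 and Shank3 stood above 0 without a call. The lithium libraries are also the ones with the high mitochondrial share and the low GC slope, and lithium and that profile cannot be told apart in these comparisons. Taken by sex, HT females had 8 of 9 lower (19.3% of all genes), HT males 7 (20.2%), WT females 6 (19%) and WT males 9 (22.2%). After trend removal 2 genes were called lower in each sex and genotype (11%, 8.84%, 9.19% and 13.8% of all genes, in the same order), and those called higher were 1 in HT females (7.46%) and 2 in WT females (11.3%). In bulk cortex, fewer cells of a type and less RNA per cell cannot be told apart either.

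Among the presynaptic receptors, Nrxn2 gave the largest difference. Its normalised count ran from 11158 to 12795 with a median of 11902 in WT lithium libraries, against 15362 to 16985 with a median of 16525 in WT vehicle libraries. In HT it ran from 10732 to 12644 with a median of 11677 under lithium, against 15658 to 18374 with a median of 16090.3 under vehicle. Every lithium library lay below every vehicle library of its genotype. Nrxn2 fell by 0.48 ± 0.0308 on the log2 scale (adjusted p = 2.38e-18) in WT, a change of -28.2%, and by 0.48 ± 0.0318 in HT (adjusted p = 6.58e-18). Without the trend it stood at -0.02 (adjusted p = 0.565) in WT and -0.05 (adjusted p = 0.203) in HT, so neither call remained.

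Nrxn3, the other neurexin, has a far lower GC content and overlapped between the groups. It ran from 5130.1 to 5990.4 with a median of 5652 in WT lithium libraries, against 5695 to 8549 with a median of 6954 in WT vehicle libraries. It fell by 0.29 ± 0.0526 on the log2 scale (adjusted p = 5.77e-06) in WT and by 0.23 ± 0.0542 in HT (adjusted p = 0.00029). Unlike Nrxn2 it was called with the trend removed, at -0.15 (adjusted p = 0.00926) in WT and -0.14 (adjusted p = 0.0217) in HT. By sex on the deposited scale it was called in HT lithium females, at -0.35 ± 0.0744 (adjusted p = 0.000131), and stood at -0.11 ± 0.0789 (adjusted p = 0.271) in HT males.

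Of the neuroligins, Nlgn3 fell in both genotypes with and without the trend, and its differences had the smallest standard error of the 9 genes. It ran from 3420.1 to 3703 with a median of 3467 in WT lithium libraries, against 4081 to 4451 with a median of 4268 in WT vehicle libraries. In HT it ran from 3241 to 3532 with a median of 3462 under lithium, against 4119 to 4428 with a median of 4218 under vehicle. The groups were separate in both genotypes. Nlgn3 fell by 0.29 ± 0.0178 on the log2 scale (adjusted p = 3.2e-19) in WT, a change of -18.4%, and by 0.30 ± 0.0183 in HT (adjusted p = 3.82e-19). With the trend removed it stood at -0.18 (adjusted p = 1.6e-09) in WT and -0.23 (adjusted p = 1.45e-11) in HT.

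Nlgn2, the neuroligin of inhibitory synapses, ran from 6797 to 7955 with a median of 7379 in WT lithium libraries, against 8714 to 10160.2 with a median of 9899.8 in WT vehicle libraries, again without overlap. It fell by 0.40 ± 0.0305 on the log2 scale (adjusted p = 5.72e-16) in WT and by 0.42 ± 0.0314 in HT (adjusted p = 5.52e-16). Most of this size went with the trend: without it the differences were -0.07 (adjusted p = 0.0282) and -0.08 (adjusted p = 0.0224).

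Nlgn1, the neuroligin of excitatory synapses and the gene of lowest GC content, stood at -0.07 ± 0.0563 (adjusted p = 0.304) in WT. Its values ran from 2121 to 2871 with a median of 2395 in WT lithium libraries, against 2155 to 2945 with a median of 2553 in WT vehicle libraries, which overlap almost wholly. In HT it stood at -0.13 ± 0.058 (adjusted p = 0.0502), just short of a call. Removal of the trend took the HT difference to -0.26 (adjusted p = 0.00121) and the WT difference to -0.13 (adjusted p = 0.087). The HT vehicle libraries were wide, at 1973 to 3164 with a median of 2515, and HT vehicle male replicate 3 was the lowest of them. Without that library the HT difference was -0.19 (adjusted p = 0.00264), and leaving out any 1 of 5 other libraries also brought a call.

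The Shank genes fell together on the deposited scale, and none of those falls was called once the trend was removed. Shank1 ran from 14165 to 18049.7 with a median of 16886 in WT lithium libraries, against 20293 to 25179.9 with a median of 23382 in WT vehicle libraries. It fell by 0.46 ± 0.0409 on the log2 scale (adjusted p = 5.96e-14) in WT and by 0.44 ± 0.0422 in HT (adjusted p = 8.18e-13), and stood at -0.01 (adjusted p = 0.802) and -0.01 (adjusted p = 0.915) with the trend removed. The groups were separate for Shank1 in both genotypes, whereas those of Shank2 and Shank3 overlapped.

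Shank2 fell by 0.27 ± 0.0389 on the log2 scale (adjusted p = 6.03e-08) in WT, and turned to 0.04 (adjusted p = 0.523) with the trend removed. Shank3, a scaffold whose loss in people is known from Phelan-McDermid syndrome, fell by 0.26 ± 0.052 on the log2 scale (adjusted p = 3.92e-05) in WT and turned to 0.17 (adjusted p = 0.0018) with the trend removed. In HT, Shank3 fell by 0.32 ± 0.0536 on the log2 scale (adjusted p = 1.34e-06) and turned to 0.10 (adjusted p = 0.0974). Taken by sex in WT, Shank3 stood at -0.11 ± 0.0735 (adjusted p = 0.255) in females and at -0.40 ± 0.0735 (adjusted p = 1.01e-05) in males. Shank2 likewise stood at -0.11 ± 0.055 (adjusted p = 0.125) in WT females and at -0.43 ± 0.055 (adjusted p = 6.69e-09) in WT males. The WT vehicle females were spread widely for Shank3, at 6858, 10206, 8685, 8687 and 8275, whereas the males held 10119.8, 10974, 9787, 9892 and 9576. The difference between the sexes in this contrast was not tested.

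Dlg4, whose product PSD-95 is the main scaffold of excitatory synapses, ran from 24828 to 28789.6 with a median of 26695 in WT lithium libraries, against 27141 to 35514 with a median of 32735 in WT vehicle libraries. It fell by 0.28 ± 0.034 on the log2 scale (adjusted p = 6.01e-10) in WT and by 0.34 ± 0.035 in HT (adjusted p = 1.16e-11). The HT groups were separate and the WT groups overlapped. Dlg4 with the trend removed stood at 0.01 (adjusted p = 0.932) in WT and -0.08 (adjusted p = 0.195) in HT.

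In WT, 4 of the 9 genes (Nrxn2, Nlgn2, Nlgn3 and Shank1) had every lithium library below every vehicle library, as did 5.87% of all genes, and in HT the same 4 and Dlg4 did, as did 7.8% of all genes. The lithium effect was then compared between the genotypes by an interaction term. None of the 9 genes was called (0% of all genes tested; edgeR and DESeq2 also called 0 of the 9, and 0 had an unadjusted p under 0.05). Interaction estimates ran from -0.07 to 0.06. HT against WT under lithium gave 0 calls as well (0.386% of all genes), with 0 unadjusted p under 0.05 and 0 calls by edgeR and DESeq2. The largest difference there was that of Nlgn1 at -0.11 ± 0.0563 (adjusted p = 0.366).

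**Figure D2:**
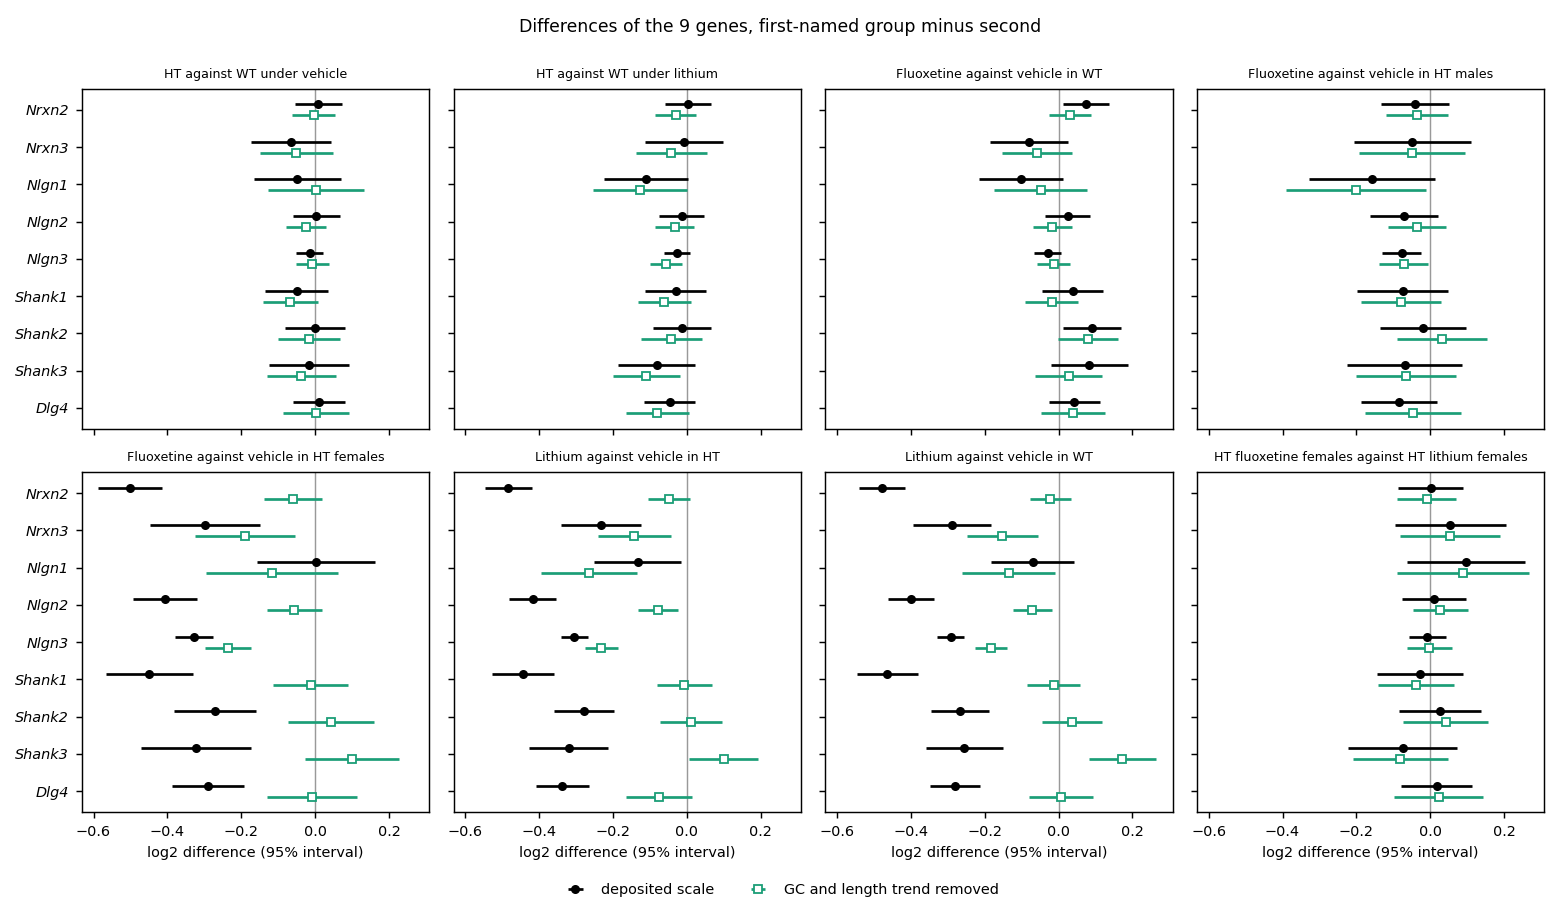
Log2 difference with its 95% interval for each gene in 8 comparisons, first-named group minus second, on the deposited scale (black circles) and with each library's GC and length trend removed (open green squares). On the deposited scale, intervals for lithium against vehicle and for fluoxetine in HT females lie below 0 except for Nlgn1. Its intervals reach 0 under lithium in WT and in HT fluoxetine females. Most differences move towards or past 0 in green, whereas the intervals of Nrxn3 and Nlgn3 stay below 0. Under lithium those of Nlgn2 also stay below 0, and Nlgn1 moves further from 0.

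Fluoxetine was compared with vehicle to ask what the antidepressant changes. In WT none of the 9 genes was called (1.02% of all genes tested), and edgeR and DESeq2 called 0 as well. Unadjusted, 2 of 9 passed 0.05: Shank2 at 0.09 ± 0.0389 (adjusted p = 0.33) and Nrxn2 at 0.07 ± 0.0308 (adjusted p = 0.305), both towards higher values. Nrxn2 ran from 16242 to 18221 with a median of 17206 in WT fluoxetine libraries, against 15362 to 16985 with a median of 16525 in WT vehicle libraries, with the groups overlapping. Dlg4 stood at 0.04 ± 0.034 (adjusted p = 0.692) and Nlgn3 at -0.03 ± 0.0178 (adjusted p = 0.546). In HT males 0 of 9 were called (0.162% of all genes; 1 of 9, Nlgn3, had an unadjusted p under 0.05, and edgeR and DESeq2 called 0). Nlgn3 in HT fluoxetine males was 4070.5, 3921, 3982, 4034 and 3821, against 4190.0, 4276, 4119 and 4152 in HT vehicle males. Those groups did not overlap, as in 1.74% of all genes, yet the difference was -0.08 ± 0.0266 (adjusted p = 0.312).

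In HT females 8 of the 9 genes fell under fluoxetine (19.5% of all genes tested were called lower), and with the trend removed Nrxn3 and Nlgn3 were called lower (7.67% of all genes) while Shank2 and Shank3 stood above 0 without a call. For 7 genes every HT fluoxetine female lay below every HT vehicle female, as for 14.3% of all genes. These 5 libraries carry the same profile as the lithium libraries, and fluoxetine and that profile cannot be told apart within this group.

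Nrxn2 was 11899.9, 11415, 11671, 11016 and 12174 in HT fluoxetine females, against 16090.3, 18374, 16604, 15658 and 15713 in HT vehicle females. Every fluoxetine value lay far below the lowest vehicle value. Nrxn2 fell by 0.50 ± 0.0436 on the log2 scale (adjusted p = 4.28e-13) and stood at -0.06 (adjusted p = 0.327) with the trend removed. Nrxn3 was 5315, 5309.7, 5774, 5909 and 5443 in HT fluoxetine females, against 7604, 7238, 6315, 5734 and 7390.4 in HT vehicle females, with 1 vehicle value inside the fluoxetine range. It fell by 0.30 ± 0.0744 on the log2 scale (adjusted p = 0.001) and stood at -0.19 (adjusted p = 0.0432) with the trend removed.

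Nlgn3 was 3495, 3340.4, 3374, 3469.6 and 3436 in HT fluoxetine females, against 4428, 4257, 4428, 4155 and 4218 in HT vehicle females. The groups were far apart relative to their spread. Nlgn3 fell by 0.33 ± 0.0251 on the log2 scale (adjusted p = 1.33e-14) and stood at -0.24 (adjusted p = 1.36e-07) with the trend removed. Nlgn2 was 7416, 7194, 7167, 6963 and 7654 in HT fluoxetine females, against 9633, 10631, 9748, 9098 and 9156 in HT vehicle females. It fell by 0.41 ± 0.0431 on the log2 scale (adjusted p = 9.96e-11) and stood at -0.06 (adjusted p = 0.339). Nlgn1 was 2269, 2689.6, 2488, 2339.8 and 2260.2 in HT fluoxetine females, against 2602, 2585, 2515, 2039 and 2317 in HT vehicle females. Its groups overlapped, at 0.0013 ± 0.0796 (adjusted p = 0.993), with a 95% interval of -0.16 to 0.16.

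Shank1 was 17046, 16734, 16419, 15263 and 16184 in HT fluoxetine females, against 22729.7, 23891, 21448, 22535 and 20862 in HT vehicle females. It fell by 0.45 ± 0.0579 on the log2 scale (adjusted p = 1.2e-08) and stood at -0.01 (adjusted p = 0.914) with the trend removed. Shank3 was 7374, 7439, 6834, 6347 and 7207 in HT fluoxetine females, against 8534, 9959.6, 8701, 8964 and 7911 in HT vehicle females. All 3 Shank genes were separate between the groups, though Shank2 and Shank3 by margins smaller than the range within either group. Shank3 fell by 0.32 ± 0.0735 on the log2 scale (adjusted p = 0.000338) and turned to 0.10 (adjusted p = 0.318) with the trend removed, and Shank2 fell by 0.27 ± 0.055 on the log2 scale (adjusted p = 6.96e-05) and turned to 0.04 (adjusted p = 0.689). Dlg4 was 26781, 27178, 25781, 25054 and 26597 in HT fluoxetine females, against 30843, 35095, 31303, 33128 and 30458 in HT vehicle females. It fell by 0.29 ± 0.048 on the log2 scale (adjusted p = 2.24e-06) and stood at -0.01 (adjusted p = 0.949).

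The same 5 libraries enter the genotype comparison under fluoxetine in females, where 8 of the 9 genes were lower in HT than in WT (20.2% of all genes were called lower; 8 were without overlap, as were 17% of all genes). With the trend removed Nrxn3, at -0.20 (adjusted p = 0.0392), and Nlgn3, at -0.22 (adjusted p = 5.27e-07), were called lower (7.83% of all genes), and the 3 Shank genes stood between 0.0063 and 0.06. Nrxn2 was lower by 0.59 ± 0.0436 (adjusted p = 4.35e-15), Nlgn3 by 0.29 ± 0.0251 (adjusted p = 3.44e-13) and Shank1 by 0.50 ± 0.0579 (adjusted p = 1.01e-09). The interaction of genotype with fluoxetine in females was called in 7 genes (15.8% of all genes were called lower), with Nrxn3 at -0.24 ± 0.105 (adjusted p = 0.0741) and Nlgn1 at 0.01 ± 0.113 (adjusted p = 0.978) not called. After trend removal Nlgn3 alone of the 9 was called, at -0.25 (adjusted p = 0.000178), beside 4.18% of all genes called lower. In a fit with each library's slopes on GC content and length as covariates, Nrxn2, Nlgn3 and Dlg4 were called.

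In males 0 of the 9 genes was called in HT against WT under fluoxetine (1.6% of all genes), but 5 of 9 had an unadjusted p under 0.05 and all 9 estimates were below 0. DESeq2 called Nlgn3 and Shank1 and edgeR called 0. The share of all genes that DESeq2 called in this comparison is not given here, so these 2 calls cannot be set against it. Shank1 came closest to a call: it was 19324, 19000.0, 22452, 21985 and 21805 in HT fluoxetine males, against 23630.0, 24549, 23585, 26132 and 22206 in WT fluoxetine males. The groups overlapped by 1 value of HT, and the difference was -0.20 ± 0.0579 (adjusted p = 0.0587). Shank1 was called lower with the trend removed, at -0.20 (adjusted p = 0.0353), as were 0.665% of all genes, and without HT fluoxetine male replicate 3, at -0.23 (adjusted p = 0.0389), or WT fluoxetine male replicate 5, at -0.23 (adjusted p = 0.0444). Nlgn3 was 4070.5, 3921, 3982, 4034 and 3821 in HT fluoxetine males, against 4220.4, 4197, 4221, 4210.3 and 4145 in WT fluoxetine males, without overlap, as in 2.49% of all genes. Its difference was -0.08 ± 0.0251 (adjusted p = 0.0731). The interaction of genotype with fluoxetine in males was called in 0 genes of the 9 and 0% of all genes, with 0 unadjusted p under 0.05 and 0 of the 9 called by edgeR and DESeq2.

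The fluoxetine effect in HT differed between females and males in 6 genes (8.59% of all genes were called lower). Nrxn2 was lower by 0.46 ± 0.0635 in the female contrast relative to the male one (adjusted p = 3.21e-06), and Nlgn3 by 0.25 ± 0.0366 (adjusted p = 6.11e-06). Nlgn3 alone was called once the trend was removed, at -0.16 (adjusted p = 0.0428), beside 0.805% of all genes called lower, and with the slopes as covariates 0 of the 9 were called. Over all 12 groups, females lay below males in 6 genes (5.2% of all genes were called lower), by 0.03 in Nlgn3 to 0.12 in Shank3. Without the HT fluoxetine females limma called 0 of the 9.

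HT fluoxetine females were then set beside HT lithium females, libraries labelled with the same genotype and sex and with different drugs. None of the 9 genes was called (0.0559% of all genes tested; 0 of 9 had an unadjusted p under 0.05, and edgeR and DESeq2 were not run on it). Nrxn2 was 11899.9, 11415, 11671, 11016 and 12174 in HT fluoxetine females, against 12644, 11757, 11467, 11598 and 10732 in HT lithium females. The fluoxetine values lay inside the lithium range, at 0.00057 ± 0.0436 (adjusted p = 0.999), with a 95% interval of -0.09 to 0.09. Nlgn3 stood at -0.01 ± 0.0251 (adjusted p = 0.952), with an interval of -0.06 to 0.04. In WT, where fluoxetine libraries did not share the profile, 8 of the 9 genes were lower under lithium than under fluoxetine (26.4% of all genes; 6 without overlap, as were 9% of all genes). Nrxn2 was lower there by 0.55 ± 0.0308 (adjusted p = 1.78e-20). Once the trend was removed Nlgn3 was called lower, at -0.17 (adjusted p = 1.43e-08), and Shank3 higher, at 0.14 (adjusted p = 0.01), where 16.2% of all genes were called lower and 16.4% higher.

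The size of the differences went with base composition. Across the 9 genes the Pearson correlation of GC content with the log2 difference was -0.80 for lithium in WT, -0.87 for lithium in HT and -0.85 for fluoxetine in HT females. Spearman's coefficient was lower in size, at -0.47, -0.80 and -0.68 in the same order. Over 17880 genes with a GC value the Pearson correlation was -0.41, -0.48 and -0.45. These are correlations across genes measured in the same libraries, which are not independent replicates. For lithium in WT the median of all genes was 0.19 in the 20% of genes with the lowest GC content (up to 44.3%) and -0.21 in the 20% with the highest (from 55.5%). The 1788 genes of highest GC content, with a median GC content of 59.5%, had a median of -0.25. Nrxn2, Nlgn2 and Shank1 lay below that value and Shank3 beside it. The GC content of these genes was higher than that median, from 60% in Nlgn2 to 62.5% in Shank1. With the trend removed, Nrxn2 and Shank1 were not called, Nlgn2 was called lower and Shank3 higher, as given above. Nrxn3 and Nlgn3 lay well below the median of 0.02 to -0.03 of the genes of similar GC content.

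**Figure D3:**
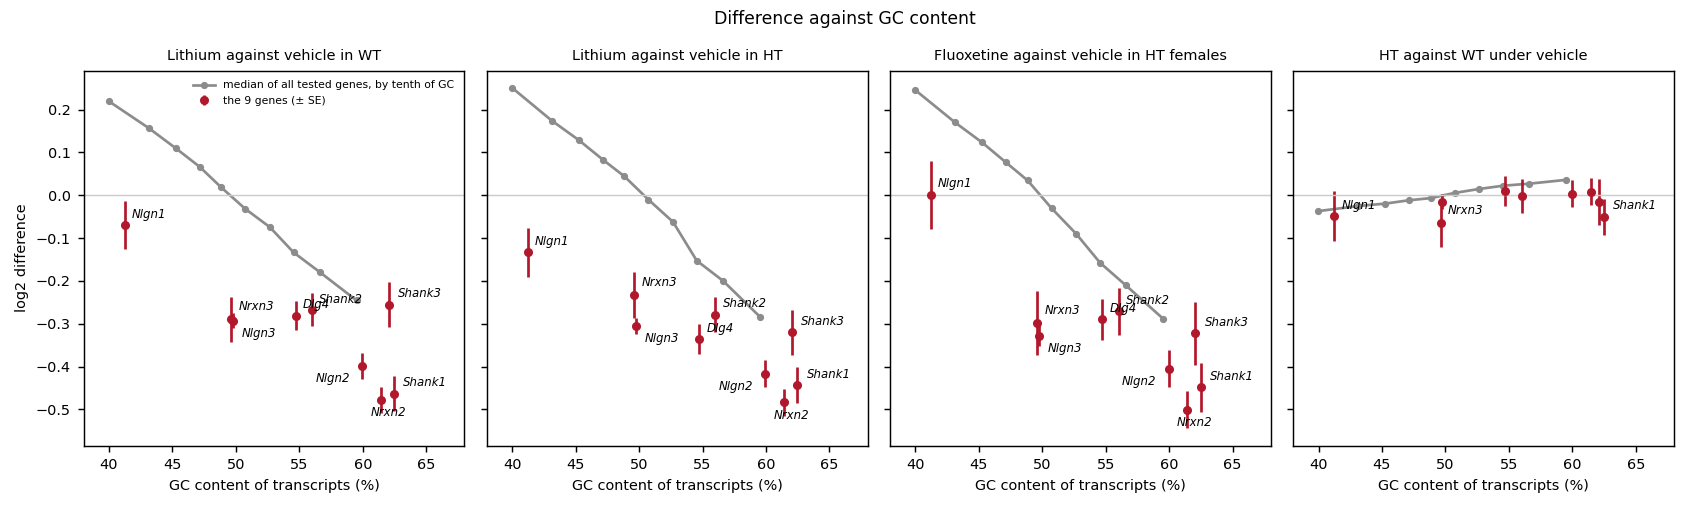
Log2 difference (± SE) of the 9 genes against the GC content of their transcripts in 4 comparisons, with the median of all tested genes in 10 bins of GC content (grey). In the first 3 panels the grey line falls with GC content, and the genes within its span lie below it. Nlgn2, Nrxn2, Shank3 and Shank1 lie beyond its end, at 59.5% GC, and cannot be read against it. In the last panel, HT against WT under vehicle, the line is nearly flat and slightly rising.

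Between libraries of one kind, the relation with the GC slope passed the adjusted threshold in both sets for 2 of the genes, Nrxn2 and Nlgn2. Within the 25 libraries, Nrxn2 rose with the library's GC slope at r = 0.87 (Spearman 0.86, permutation p = 1e-05 for each, the smallest that 100000 permutations can give, adjusted p = 9e-05 and 0.00018 over 18 relations, r = 0.86 without the 2 farthest libraries). Within the other 34 its r was 0.70 (Spearman 0.65, permutation p = 2e-05 and 3e-05, adjusted p = 0.00012 and 0.00018, r = 0.62 without the 2 farthest). Nlgn2 gave r = 0.83 and 0.67 in the same sets (Spearman 0.82 and 0.48, permutation adjusted p = 9e-05 and 0.000135 for r and 0.00018 and 0.019 for Spearman, r = 0.79 and 0.46 without the 2 farthest). Shank3 and Dlg4 gave r = 0.63 and 0.58 in the 34 libraries (Spearman 0.42 and 0.37, permutation adjusted p = 0.000396 and 0.00135 for r, 0.0535 and 0.0852 for Spearman), but 0.33 and 0.28 without the 2 farthest, so those relations rest on these 2 libraries. In the 25 libraries they gave 0.17 and 0.11. Shank1 gave r = 0.44 in the 34 libraries (Spearman 0.33, permutation adjusted p = 0.025 and 0.132) but 0.22 without the 2 farthest. Nrxn3 went the other way there, at r = -0.41 (Spearman -0.30, permutation adjusted p = 0.0375 and 0.171), and at -0.29 without the 2 farthest. Shank2, with r = 0.38 in the 34 libraries, had a permutation adjusted p of 0.0506. Nlgn3, at 0.39 and -0.05, and Nlgn1, at -0.21 and -0.24, passed the adjusted threshold in neither set. The slope is computed over all genes of a library, these 9 included, so genes of high GC content tend to rise with it by construction. The share of all genes, or of genes of like GC content, that pass the same test was not counted. These relations are therefore not particular to Nrxn2 and Nlgn2.

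**Figure D4:**
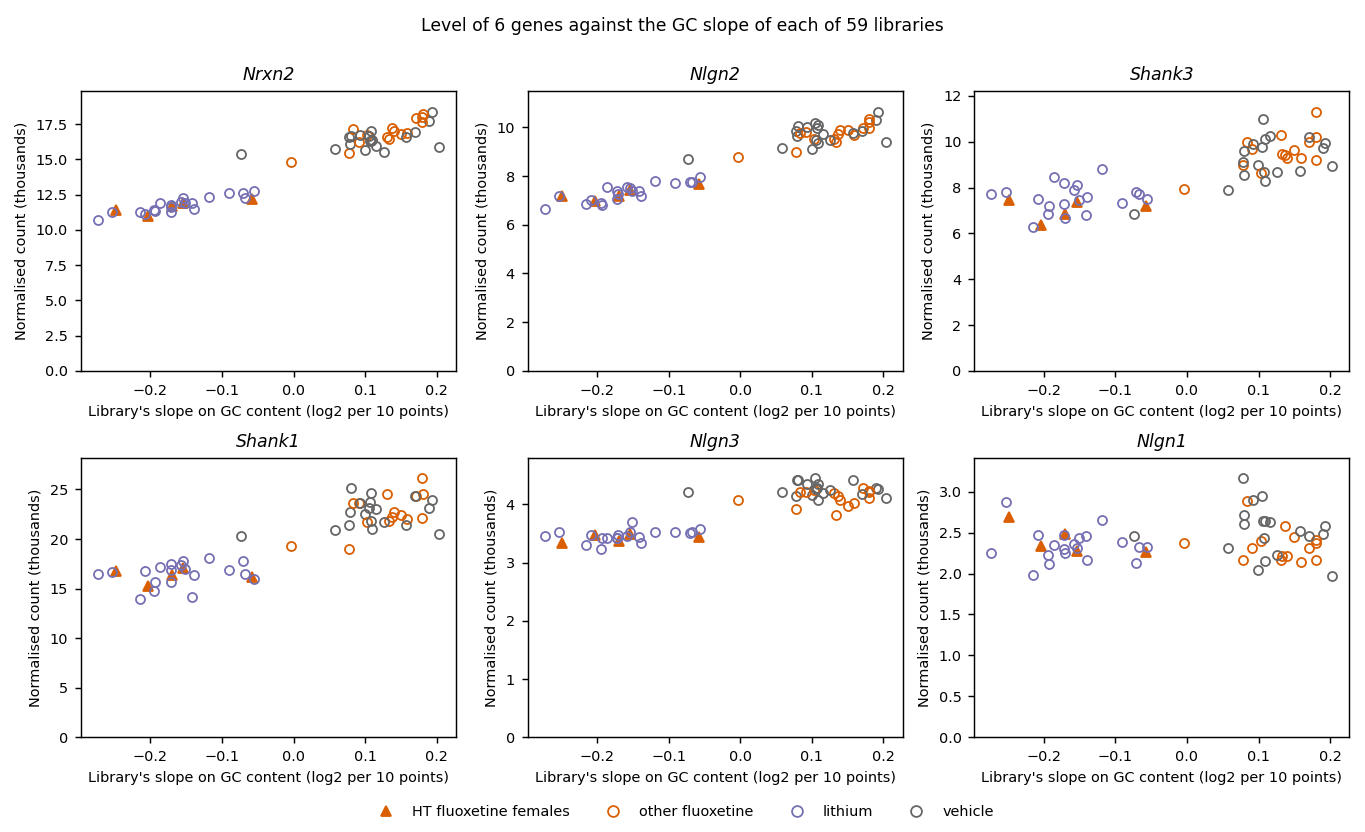
Normalised count (axis in units of 1000) of 6 genes against the slope of each of 59 libraries on GC content (log2 per 10 points); triangles are HT fluoxetine females. Nrxn2 and Nlgn2 rise with the slope inside both sets of libraries, Nlgn3 stands at 2 levels with little slope inside each, and Nlgn1 shows neither.

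Within groups, after each group's mean was removed, 6 of the 9 genes varied together from library to library: Nrxn2, Nlgn2, Shank1, Shank2, Shank3 and Dlg4, whose 15 pairs were all positive at an adjusted p under 0.05 (permutation). These 6 were picked out after their values were seen. Shank1 and Shank2 varied together at r = 0.87 (Spearman 0.84, 0.85 without the 2 libraries farthest from the median) over 59 libraries, and Shank3 and Dlg4 at 0.83 (Spearman 0.81, 0.77 without the 2 libraries farthest from the median). Nrxn2 and Nlgn2 did so at 0.91 (Spearman 0.89, 0.89 without the 2 libraries farthest from the median). Nrxn3 went the other way, with -0.68 (Spearman -0.69, -0.59 without the 2 libraries farthest from the median) against Shank3 and -0.60 (Spearman -0.59, -0.49 without the 2 libraries farthest from the median) against Dlg4. Those of Shank1 with Shank2, Shank3 with Dlg4, Nrxn2 with Nlgn2 and Nrxn3 with Shank3 had a permutation p of 1e-05 and an adjusted p of 4.5e-05 for r over 36 pairs, and Nrxn3 with Dlg4 had 3e-05 and 9.82e-05. For Spearman's coefficient all 5 had a permutation p of 1e-05, the smallest that 100000 permutations can give, and an adjusted p of 3.6e-05. In the 25 and the 34 libraries taken separately, Nrxn3 with Shank3 gave -0.67 and -0.70, Shank3 with Dlg4 0.65 and 0.93, and Nrxn2 with Nlgn2 0.95 and 0.87. Of the 36 pairs 16 were positive, the 15 above and Nlgn2 with Nlgn3, and 4 negative at an adjusted p under 0.05, and all 4 negative pairs joined Nrxn3 to a Shank gene or Dlg4. Nlgn1 passed in none of its 8 pairs. Genes of 1 library share its depth and composition. The 6 genes are also those of highest GC content among the 9, from 54.7% in Dlg4 to 62.5% in Shank1. Nrxn2 and Nlgn2 both rose with the library's GC slope, as given above. The share of all gene pairs, or of pairs of like GC content, that pass was not counted, and shared regulation was not tested.

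Across the 12 group means, the genes at or above the median level whose pattern was most like each of the 9 were sought among 8946 genes. They were Grik5, a kainate receptor subunit, and Nlgn2 for Nrxn2 (r = 0.998 and 0.997), Os9 and Zfp358 for Nlgn2 (0.999 and 0.998), and Usp22 and Ddx54 for Nlgn3 (0.997 and 0.995). For the scaffolds they were Mast2 and Rnf157 for Shank1 (both 0.995), Syt7 and Add2 for Shank2 (0.990 and 0.989), Cdk16 and Fbxo41 for Shank3 (0.992 and 0.989) and Arf3 and Pld3 for Dlg4 (0.998 and 0.997). Nrxn3 was most like Ncoa6 and Champ1 (0.974 and 0.971). Nlgn1 was most like Cdh10, a cadherin, and Lrrc4c, the netrin-G ligand NGL-1 (0.942 and 0.907), which left it with the weakest likeness of the 9. Each value is among the highest of 8946 correlations over 12 means. Genes that follow the split of HT fluoxetine females and the lithium groups from the other groups reach high values by that split alone. Nlgn1 does not follow that split, and shared regulation was not tested.

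Other genes of the same machinery were counted by role. In lithium against vehicle in WT, 26.6% of all genes were called higher and 26.3% lower. Of 9 presynaptic partners of neurexins 2 rose and 5 fell, with Sdcbp, which encodes syntenin, at 0.29 (adjusted p = 9.59e-13) and Apba1, which encodes Mint1, at -0.25 (adjusted p = 1.17e-12). Both were still called with the trend removed, at 0.20 (adjusted p = 5.26e-06) and -0.06 (adjusted p = 0.0401). Of 19 other ligands of neurexins 3 rose and 8 fell, among them Dag1, which encodes dystroglycan, at -0.33 (adjusted p = 2.4e-18) and Clstn3, a calsyntenin, at -0.38 (adjusted p = 5.63e-12). Both were also called lower with the trend removed, at -0.14 (adjusted p = 2.52e-07) and -0.17 (adjusted p = 0.000331). Of the 2 Mdga genes, whose products mask neuroligins, Mdga1 fell, at -0.58 (adjusted p = 0.00035), and Mdga2 rose, at 0.19 (adjusted p = 0.0137). Without the trend Mdga1 stood at -0.24 (adjusted p = 0.188) and was no longer called, whereas Mdga2 was called higher at 0.20 (adjusted p = 0.000538). The trend-removed counts, higher and lower, were 2 and 4 of the presynaptic partners, 3 and 6 of the other ligands and 1 and 0 of the Mdga genes, beside 19.5% and 17.5% of all genes.

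Of 20 other postsynaptic density scaffolds 4 rose and 11 fell under lithium in WT, but 4 rose and 1 fell with the trend removed. Dlgap4, a link between PSD-95 and Shank, stood at -0.29 (adjusted p = 8.29e-15), and at 0.05 with the trend removed (adjusted p = 0.131). Of 5 inhibitory synapse scaffolds 0 rose and 3 fell, among them Insyn1 at -0.30 (adjusted p = 7.67e-11) and Lhfpl4, which anchors GABA-A receptors with Nlgn2, at -0.23 (adjusted p = 1.47e-10). Without the trend 0 were called higher and 2 lower, with Insyn1 called at -0.07 (adjusted p = 0.00485) and Lhfpl4 not, at -0.04 (adjusted p = 0.231). Of 25 other synaptic adhesion genes 4 rose and 13 fell, with the receptor phosphatases Ptprf at -0.43 (adjusted p = 3.82e-17) and Ptprs at -0.34 (adjusted p = 3.36e-16), and Ptprs turned to 0.08 (adjusted p = 0.0122) with the trend removed, where Ptprf stood at -0.10 (adjusted p = 0.00682) and 5 were called higher and 9 lower. List medians ran from -0.12 in the presynaptic partners to -0.23 in the inhibitory scaffolds and in the other ligands, where the median of all genes was 0.01.

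In HT females under fluoxetine the counts were 1 up and 3 down of the presynaptic partners, 1 and 6 of the other ligands, 0 and 0 of the Mdga genes, 4 and 9 of the scaffolds, 1 and 3 of the inhibitory scaffolds and 2 and 9 of the other adhesion genes, where 18.9% of all genes were called higher and 19.5% lower. With the trend removed they were 1 and 1, 1 and 3, 0 and 0, 1 and 0, 0 and 1, and 2 and 4, in the same order, where 8.37% of all genes were called higher and 7.67% lower. Lrrc4b, the netrin-G ligand family member NGL-3, stood at -0.50 (adjusted p = 2.74e-10) there, and at -0.20 (adjusted p = 1.04e-05) with the trend removed. For fluoxetine in WT, 1 of these 80 genes rose and 0 fell, where 1.02% of all genes were called higher or lower. For HT against WT under vehicle 0 rose and 0 fell, where 0.106% of all genes were called.

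Cell type markers were measured beside these results. The summed level of 6 markers of cortical excitatory neurons ran from 49025 to 65514 in the 25 libraries, median 59559, against 54395 to 74835, median 70259, in the other 34. For 5 markers of all neurons it ran from 128593 to 175454, median 159307, against a median of 155159 in the other 34. That sum hides calls in both directions: under lithium in WT 2 of the 5 were called higher and 3 lower. With the trend removed 1 was called higher and 1 lower. For 6 markers of inhibitory neurons the medians were 20583 and 21430.1, for 6 of astrocytes 117619 and 132683, for 4 of endothelium 3783 and 4571, for 6 of microglia 8879.5 and 9538, and for 6 of oligodendrocytes 110916 and 106127. For 2 markers of oligodendrocyte precursors the sum ran from 1944 to 2997 in the 25 libraries, median 2386, against 2275 to 3465, median 2727, in the other 34. Both markers were called lower in HT females under fluoxetine (19.5% of all genes), as was 1 under lithium in WT (26.3%) and in HT (24.9%). For 5 striatal markers the sums ran from 1667 to 8468 in the 25 libraries, against 1932 to 12899.8. No marker was at 0 in all libraries of either set. Under lithium in WT, 0 astrocyte markers were called higher and 3 lower, and 2 inhibitory neuron markers higher and 1 lower. There 26.6% of all genes were called higher and 26.3% lower. With the trend removed these counts were 0 and 1, and 1 and 2, beside 19.5% and 17.5% of all genes. Of the 6 excitatory neuron markers, 1 was called higher and 4 lower under lithium in WT, and 0 with the trend removed. Under lithium in HT 0 were called higher and 4 lower, and 1 lower with the trend removed. In HT females under fluoxetine 1 was called higher and 3 lower, and 0 with the trend removed. With the trend removed 17.5%, 16.7% and 7.67% of all genes were called lower, in the same order. The part of these marker levels, of any cell type, in the falls described above was not tested.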

How the data were processed

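Stranded mRNA libraries (TruSeq Stranded mRNA LT, per the labels' protocols) were made from 59 prefrontal cortex samples. Tools named in the submitters' processing notes, without their roles, are DESeq2 1.19.11, Salmon 0.11.2 and R 3.6.0, with the build GRCm38. The deposited values are a signal, the normalised count: in each library they are whole reads divided by 1 size factor, since dividing by the step of that library gave whole numbers, within 0.01 read, for 100% of values under 1000 reads. How the authors filtered genes is not given in the sources used here. Recovered totals were 25 to 32.9 M reads per library. The precision of each value is limited by the spread between libraries.

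Here log2(value + 1) was fitted with limma 3.58.1 in R 4.3.3 (empirical Bayes with an intensity trend), with 1 mean for each of 12 groups, 47 residual degrees of freedom and 17891 genes with a value of at least 10 in 4 or more libraries. P-values were two-sided and Benjamini-Hochberg adjusted within each comparison, with a threshold of 0.05. Gene positions, exon lengths and GC content came from GENCODE M21 (18077 of 18088 identifiers matched). The trend on GC content and gene length was a natural spline with 5 degrees of freedom per library, and its residuals were fitted again. Alternatives were DESeq2 1.42.0 and edgeR 4.0.16, both run on the recovered counts, quantile normalisation, a pseudocount of 5, no filter, no intensity trend, the compared groups alone, slopes as covariates, a replicate block, and each library left out. edgeR, DESeq2, the contrasts by sex and HT fluoxetine females against HT lithium females were added after seeing the data. The fit was tested on counts simulated without GC or length slopes and without the split of the libraries. That test therefore cannot vouch for calls where these are present. Named were the 9 genes, the 2 listed genes per role with the smallest p among those called, and the 2 genes most like each of the 9. A listed gene that this rule names is not reported here. The members, lists and tests were chosen with earlier results of these data known.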

Additional observations from a re-analysis of the deposited data

Results flagged for a closer look

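The effect of fluoxetine relative to vehicle in females differed between HT and WT, by an interaction term, in 7 of the 9 genes. Of all genes, 15.8% were called lower in this comparison. The difference of log2 differences, HT minus WT, was -0.62 in Nrxn2, -0.48 in Nlgn2, -0.32 in Nlgn3, -0.53 in Shank1, -0.44 in Shank2, -0.48 in Shank3 and -0.37 in Dlg4. Within HT the effect of fluoxetine differed between females and males in 6 genes, female minus male, by -0.46 in Nrxn2, -0.33 in Nlgn2, -0.25 in Nlgn3, -0.37 in Shank1, -0.25 in Shank2 and -0.21 in Dlg4. There 8.59% of all genes were called lower. In this comparison of the sexes Shank2 was no longer called without HT fluoxetine female replicate 4, HT fluoxetine male replicate 3 or 5, HT vehicle female replicate 2 or HT vehicle male replicate 3 (adjusted p = 0.0528 to 0.0842, limma). Dlg4 was no longer called without HT fluoxetine female replicate 3 or 4, HT fluoxetine male replicate 3, 4 or 5, HT vehicle female replicate 2 or 4 or HT vehicle male replicate 3 or 4 (adjusted p = 0.0553 to 0.0971, limma). Shank3 was called without HT fluoxetine male replicate 1 and Nrxn3 without HT vehicle female replicate 4 (adjusted p = 0.0472 for Shank3 and 0.0402 for Nrxn3, limma). In the interaction of genotype with fluoxetine, Nrxn3 was called without HT vehicle female replicate 4, WT fluoxetine female replicate 5 or WT vehicle female replicate 1 (adjusted p = 0.0162 to 0.0445, limma). Both sets rest on the 5 HT fluoxetine female libraries, which stand with the lithium libraries in mitochondrial share and GC slope. With the trend on GC content and gene length removed, 1 gene of the 9, Nlgn3, was called in each comparison. Of all genes, 4.18% were then called lower in the interaction and 0.805% in the comparison of the sexes. With the slopes as covariates 3 genes, Nrxn2, Nlgn3 and Dlg4, were called in the interaction of genotype with fluoxetine, and 0 in the comparison of the sexes. Counts over all genes with the slopes as covariates are given below.

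In 108 groups of 4 or 5 libraries examined for a library far from the others, 2 were found, where chance gives about 1 in 20. Both were WT vehicle male replicate 2, with 5695 for Nrxn3 and 9465 for Nlgn2, each the lowest of its group.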

How the results depend on the processing

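Counts of the 9 genes called stayed within 1.5 times of those reported, in each of the 15 comparisons, with edgeR, quantile normalisation, a pseudocount of 5, no filter, no intensity trend, the compared groups alone and the replicate block. With the trend on GC content and length removed the counts were 2 for HT against WT under fluoxetine in females, 1 in males, 4 for lithium in WT, 4 in HT, 2 for fluoxetine in HT females, 2 for lithium against fluoxetine in WT, 1 for genotype by fluoxetine in females, 1 for sex by fluoxetine in HT and 0 for female against male. With the slopes as covariates they were, in the same order, 3, 2, 4, 4, 3, 3, 3, 0 and 2. DESeq2 called 2 in HT against WT under fluoxetine in males, where its share of all genes is not given here. Without the 5 HT fluoxetine females 0 were called in female against male. With the trend removed 16 differences that had been called turned from below 0 to above: in HT against WT under fluoxetine in females Shank1 0.0063, Shank2 0.0079 and Shank3 0.058; for lithium in WT Shank2 0.036, Shank3 0.17 and Dlg4 0.00597; in HT Shank2 0.012 and Shank3 0.10; for fluoxetine in HT females Shank2 0.043 and Shank3 0.10; for lithium against fluoxetine in WT Shank1 0.0054 and Shank3 0.14; for genotype by fluoxetine in females Shank3 0.017; and for sex by fluoxetine in HT Shank1 0.068, Shank2 0.011 and Dlg4 0.037. The cause was not tested.

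Leaving out 1 library gave 8 to 8 calls for HT against WT under fluoxetine in females, 0 to 1 in males, 8 to 8 for lithium in WT, 8 to 9 in HT, 8 to 8 for fluoxetine in HT females, 8 to 8 for lithium against fluoxetine in WT, 7 to 8 for genotype by fluoxetine in females, 4 to 7 for sex by fluoxetine in HT, 5 to 7 for female against male and 0 to 0 elsewhere. The replicate block gave 8 for lithium in each genotype and changed no call of the 9 genes. Residuals of libraries with the same number in different groups correlated at 0.0104 on average, against -0.0026 for different numbers. Of 59 libraries 18 correlated best with their own number. No chance level was computed for these values, so whether the numbers pair libraries, and whether litters were shared, was not tested. The last replicates of HT vehicle males carry other numbers in their library names, which were not used.

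Over all genes, counts moved further. HT against WT under vehicle gave 19 calls, but 6 from the compared groups alone, 29 with slopes and 30 with DESeq2. Under lithium it gave 69, but 19, 184 and 247, and 109 with edgeR. Under fluoxetine in males it gave 287, but 108 and 1159, and in HT males fluoxetine against vehicle gave 29, but 0, 123 and 57 with DESeq2. Genotype by lithium and by fluoxetine in males gave 0, and 2 and 1 with DESeq2. With the trend removed and with slopes, the counts were 2598 and 901 (7062) for HT against WT under fluoxetine in females, 5385 and 1731 (9054) for lithium in HT, 2869 and 913 (6856) for fluoxetine in HT females, 5836 and 1987 (9534) for lithium against fluoxetine, 1157 and 493 (5183) for genotype by fluoxetine in females, 281 and 16 (2716) for sex by fluoxetine and 98 and 928 (1567) for female against male, with the count as reported in parentheses. Lithium in WT gave 2031 with slopes (9467), and female against male 26 without the HT fluoxetine females. Leaving out 1 library gave 10 to 29 calls for HT against WT under vehicle, 36 to 185 under lithium and 70 to 305 under fluoxetine in males, and 0 to 30 for fluoxetine in HT males and 96 to 294 in WT, where 182 were reported. In female against male, Shank1 was called without any 1 of 12 libraries and Shank2 was lost without any 1 of 11.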
